A study of Mus musculus with 30 samples.

Results

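The 10 genes described here belong to the Notch pathway: 4 receptors (Notch1, Notch2, Notch3 and Notch4), 2 ligands (Jag1 and Dll1) and 4 targets of the HES and HEY families (Hes1, Hey1, Hey2 and Heyl). They were picked by name among the 78334 gene identifiers of the count table, by matching mouse Ensembl identifiers to symbols, and all 10 were found. RNA was sequenced from cultured mouse aortic smooth muscle cells in 30 libraries that fall into 9 groups, in a study of the long noncoding RNA CASC15. All cells were held in serum-free medium for 48 hours, and transfections ran for at least 24 hours.

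The sequencing run called run 2 in the labels held untreated cells only. A control antisense oligonucleotide (a GapmeR, which directs cleavage of the RNA it pairs with) was used in 2 libraries, and 2 more are labelled total CASC15 knockdown. Plasmids were used in the others, 3 as controls and 3 overexpressing total CASC15. In run 3 there were 5 groups, each of 4 libraries. Cells with the control oligonucleotide were untreated, given angiotensin II (AngII) at 10 ng/ml, or given platelet-derived growth factor BB (PDGF-BB) at 10 to 30 ng/ml, each for 24 hours. Cells with knockdown of long CASC15 were untreated or given AngII in the same way. Every group thus carries a transfection, and the PDGF-BB group carries the control oligonucleotide as well. The labels assign each library to a batch, P16 to P19, with 1 library of each batch in every group of run 3. Run 2 has batches P17 and P18 in every group and P19 in the plasmid groups only. Nothing in the labels says that batches or libraries come from separate animals, so p-values measure the spread between these libraries, which may be technical.

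Notch receptors are single-pass membrane proteins that are activated by ligands on a neighbouring cell. Ligand pulling exposes the receptor to ADAM proteases and then to gamma-secretase, which frees the intracellular domain to enter the nucleus, bind the DNA-binding protein RBPJ with a Mastermind coactivator, and switch on genes such as the HES and HEY repressors. In arteries, Jag1 and Notch3 are known for their part in the maturation of smooth muscle cells, and Hey2 and Heyl are known vascular targets.

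Library totals ran from 18007199 to 21881959 counts in run 2 and from 15771490 to 30362047 in run 3. The targeted gene was read from 2610307P16Rik, taken here as mouse CASC15. It fell from 4.94 to 6.01 CPM (counts scaled to library size) in untreated controls to 2.15 to 3.48 in long knockdown (adjusted p = 0.000832). Under AngII it fell from 4.69 to 6.13 CPM to 2.60 to 3.89 (adjusted p = 0.00372). With PDGF-BB, in cells with the control oligonucleotide, it also fell, to 2.95 to 4.82 CPM (log2 fold change -0.62, adjusted p = 0.0101). Overexpression raised it from 4.03 to 8.69 CPM with the plasmid to 604 to 916 (adjusted p = 1.88e-05). It stood at 9.73 and 8.29 CPM in libraries labelled total CASC15 knockdown, against 7.66 and 6.37 in their controls (edgeR adjusted p = 0.739), so this gene count does not show the loss that their label names. Among 10 smooth muscle markers, Cald1, Acta2 and Smtn were abundant (group means of 467 to 739, 109 to 254 and 46.7 to 95.5 CPM), while the other 7 (Myh11, Mylk, Tagln, Myocd, Des, Lmod1 and Cnn1) reached group means of at most 5.49, 4.67, 3.25, 2.50, 2.14, 1.03 and 0.162. Of 7 fibroblast markers, Col1a1, Col1a2 and Dcn were abundant (group means of 1379 to 3016, 390.5 to 2043 and 664 to 1897 CPM), Pdgfra and Pi16 lay at 3.10 to 66.4, and Lum and Dpt reached at most 3.83 and 0.487. The 10 endothelial markers summed to 2.55 to 11.8 CPM. Vwf, Egfl7 and Pecam1 reached group means of 4.82, 3.32 and 2.64 CPM, while Cdh5 and Erg reached at most 0.0224 and 0.0448, and Tie1 and Cldn5 had no count in any library.

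RefSeq promoters on GRCm38.p6 were matched for 7 of the 10 genes: Notch1, Notch2, Notch3, Notch4, Jag1, Dll1 (2 start sites) and Hey2. Hes1, Hey1 and Heyl were not matched. Each promoter was searched from 250 bases before to 50 bases after the start site for the core of the RBPJ site, GTGGGAA, on both strands. Hey2 was the only one of the 7 with a match, and it had 2. The first match begins 207 bases before the start site on the opposite strand, and the other begins 4 bases before it on the gene's own strand. Of 32851 promoters in the table, 6.38% held at least 1 match and 0.256% held 2 or more. The Hey2 promoter is shown because this target fell under PDGF-BB. It is written 5′ to 3′ on the gene's strand (chr10:30842764-30843033, minus strand), from 250 bases before to 20 after the start, with both matches in capitals. These letters are a description of the sequence and no evidence of binding.

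Hey2 promoter: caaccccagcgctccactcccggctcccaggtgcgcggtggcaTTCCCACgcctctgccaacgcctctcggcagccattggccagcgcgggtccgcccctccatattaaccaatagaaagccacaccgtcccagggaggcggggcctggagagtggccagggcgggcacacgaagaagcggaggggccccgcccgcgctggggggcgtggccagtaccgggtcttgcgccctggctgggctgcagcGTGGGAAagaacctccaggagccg

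The receptors Notch1 and Notch3 are shown with it because they rose together under long CASC15 knockdown and went opposite ways under PDGF-BB. Neither holds the RBPJ core. HES proteins are known to bind a motif called the N-box, CACNAG, which was searched after the values were known. Notch1 has 3 matches, of which 2 overlap at the start site, and Notch3 has 2. Notch2 and Dll1 also held a match, while Jag1, Notch4 and Hey2 held none. Such a match is common, in 42.5% of all promoters, and 11.3% hold 2 or more. Both are written as above, with N-boxes of either strand in capitals (Notch1 at chr2:26503803-26504072 and Notch3 at chr17:32166871-32167140, both on the minus strand).

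Notch1 promoter: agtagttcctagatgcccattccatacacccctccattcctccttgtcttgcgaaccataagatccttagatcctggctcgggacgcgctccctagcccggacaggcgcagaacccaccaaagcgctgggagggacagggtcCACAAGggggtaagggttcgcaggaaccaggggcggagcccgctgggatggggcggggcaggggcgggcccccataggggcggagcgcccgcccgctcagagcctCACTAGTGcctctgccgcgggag

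Notch3 promoter: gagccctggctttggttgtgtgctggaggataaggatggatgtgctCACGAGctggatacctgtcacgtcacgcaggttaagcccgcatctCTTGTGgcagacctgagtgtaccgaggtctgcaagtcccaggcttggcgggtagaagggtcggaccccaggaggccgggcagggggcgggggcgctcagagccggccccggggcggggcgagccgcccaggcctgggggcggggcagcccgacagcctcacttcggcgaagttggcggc

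Abundance was compared between genes as CPM per kilobase of the longest annotated transcript. In untreated controls of run 3, Jag1 stood highest at 73.7 CPM per kilobase, followed by Hes1 at 16.3 and Notch2 at 14.9. Hey2 (1.80), Notch3 (1.65) and Notch1 (1.29) lay close together about 10 times lower, and all other members were lower still. That order rests on the length used. With each gene's median transcript length Jag1 (117) and Hes1 (45.3) were still highest, but Notch1 (30.2) stood above Notch2 (25.3) and Notch3 (18.4). Hey2, at 1.93, then lay slightly below Dll1 (2.52) and Notch4 (2.01). Hes1 and Notch2, and likewise Hey2 and Notch3, do not differ beyond their spread per kilobase of the longest transcript. Notch2 made up 82.7% ± 0.913 (SD, n = 4) of the summed receptor level. With the median transcript length that share was 33.3%, below Notch1 at 39.9%. Levels are per unit of RNA in a culture, so fewer cells of a type and less RNA per cell cannot be told apart.

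Each gene was tested by quasi-likelihood in edgeR, and p-values were adjusted by the Benjamini-Hochberg method over all 15350 genes tested in run 2 and all 15103 in run 3. A gene is said to rise or fall where the adjusted p is under 0.05. Of the 10 members, 9 had enough counts to be tested in run 2 and 8 in run 3. Hey1 was tested in neither, with at most 4 counts in any library, and Heyl was tested in run 2 only. A fit with the batch as an added term (the replicate block) was run beside each comparison.

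Knockdown of long CASC15 went with higher levels of 3 of the 4 receptors, in untreated cells and under AngII, while the ligands and the tested targets, Hes1 and Hey2, did not pass the test. Heyl and Hey1 were not tested there, and Jag1 passed under AngII with the batch term only. Notch1 was 2.34-fold, Notch2 2.12-fold and Notch3 1.89-fold higher than in untreated controls. These 3 of 8 tested members rose and none fell, where 25% of all genes tested were called, 12.3% higher and 12.8% lower. The batch term called the same number of members, where it called 40.6% of all genes. All libraries of the 2 groups were separated for these 3 genes and no other member, against 24.5% of all genes whose groups do not overlap.

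Notch1, the best studied receptor of the family, measured 11.5, 12.6, 13.1 and 11.9 CPM in the untreated controls of batches P16 to P19. The matching knockdown libraries had 28.9, 32.4, 28.5 and 25.1 CPM. Every knockdown library was above every control, and within batches the log2 ratio ran from 1.08 to 1.37. The fitted log2 fold change was 1.23 (SE 0.127, adjusted p = 6.84e-07).

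Notch2, which is widely expressed in vessel walls, measured 163, 165, 154 and 145 CPM in controls and 349, 399, 325 and 257 CPM in knockdown. The P19 library was the lowest of both groups, yet still far above every control in the knockdown. Its log2 change was 1.09 with an SE of 0.129 (adjusted p = 4.67e-06), and within batches the ratio ran from 0.82 to 1.28.

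Notch3, the receptor most associated with arterial smooth muscle, measured 14.7, 13.6, 14.3 and 10.2 CPM in controls and 21.0, 25.3, 25.7 and 27.7 CPM in knockdown. P19 was here the lowest control and the highest knockdown library, which set the widest within-batch range of the 3 receptors, from 0.51 to 1.44. The log2 change was 0.92 with an SE of 0.136 (adjusted p = 4.81e-05).

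Notch4, known mainly from endothelium, was scarce and did not pass the test. It measured 0.97 to 1.60 CPM in controls and 0.796 to 1.25 CPM in knockdown, with overlapping groups and a log2 fold change of -0.40 (95% interval -1.09 to 0.29, adjusted p = 0.407).

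Among the ligands, Jag1 stood at 448, 450, 438 and 319 CPM in controls and 453, 455, 422 and 362 CPM in knockdown. The groups overlapped fully, and the log2 fold change of 0.03 had a 95% interval of -0.26 to 0.32. Dll1, a ligand of the Delta type, measured 0.948 to 2.69 CPM in controls and 1.27 to 3.46 in knockdown. It was higher in knockdown in 4 of 4 batches, but the log2 fold change of 0.60 did not pass the test (95% interval -0.30 to 1.49, adjusted p = 0.329; 0.103 with the batch term).

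None of the tested targets passed the test in long knockdown. Hes1, a general Notch target and repressor, measured 26.7, 24.7, 23.9 and 20.7 CPM in controls and 29.5, 26.9, 27.2 and 19.2 CPM in knockdown, a log2 fold change of 0.10 (95% interval -0.22 to 0.42). Hey2 gave -0.01 (95% interval -0.77 to 0.75), with 3.83 to 5.75 CPM in controls and 3.28 to 7.66 in knockdown. The interval is wide for Hey2 and narrower for Hes1 and Jag1.

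Heyl was close to absent in run 3 and was not tested there. It had 0, 0, 0 and 2 counts in the untreated controls of P16 to P19 and 14, 6, 3 and 1 counts in knockdown. The summed 24 counts against 2 give a ratio of 14.9 with a counting interval of 3.70 to 130. Under AngII the counts were 0, 1, 0 and 0 against 16, 6, 1 and 1, a ratio of 22 (3.59 to 906). Most of these reads came from P16 and P17, and the intervals cover counting error only.

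**Figure D1:**
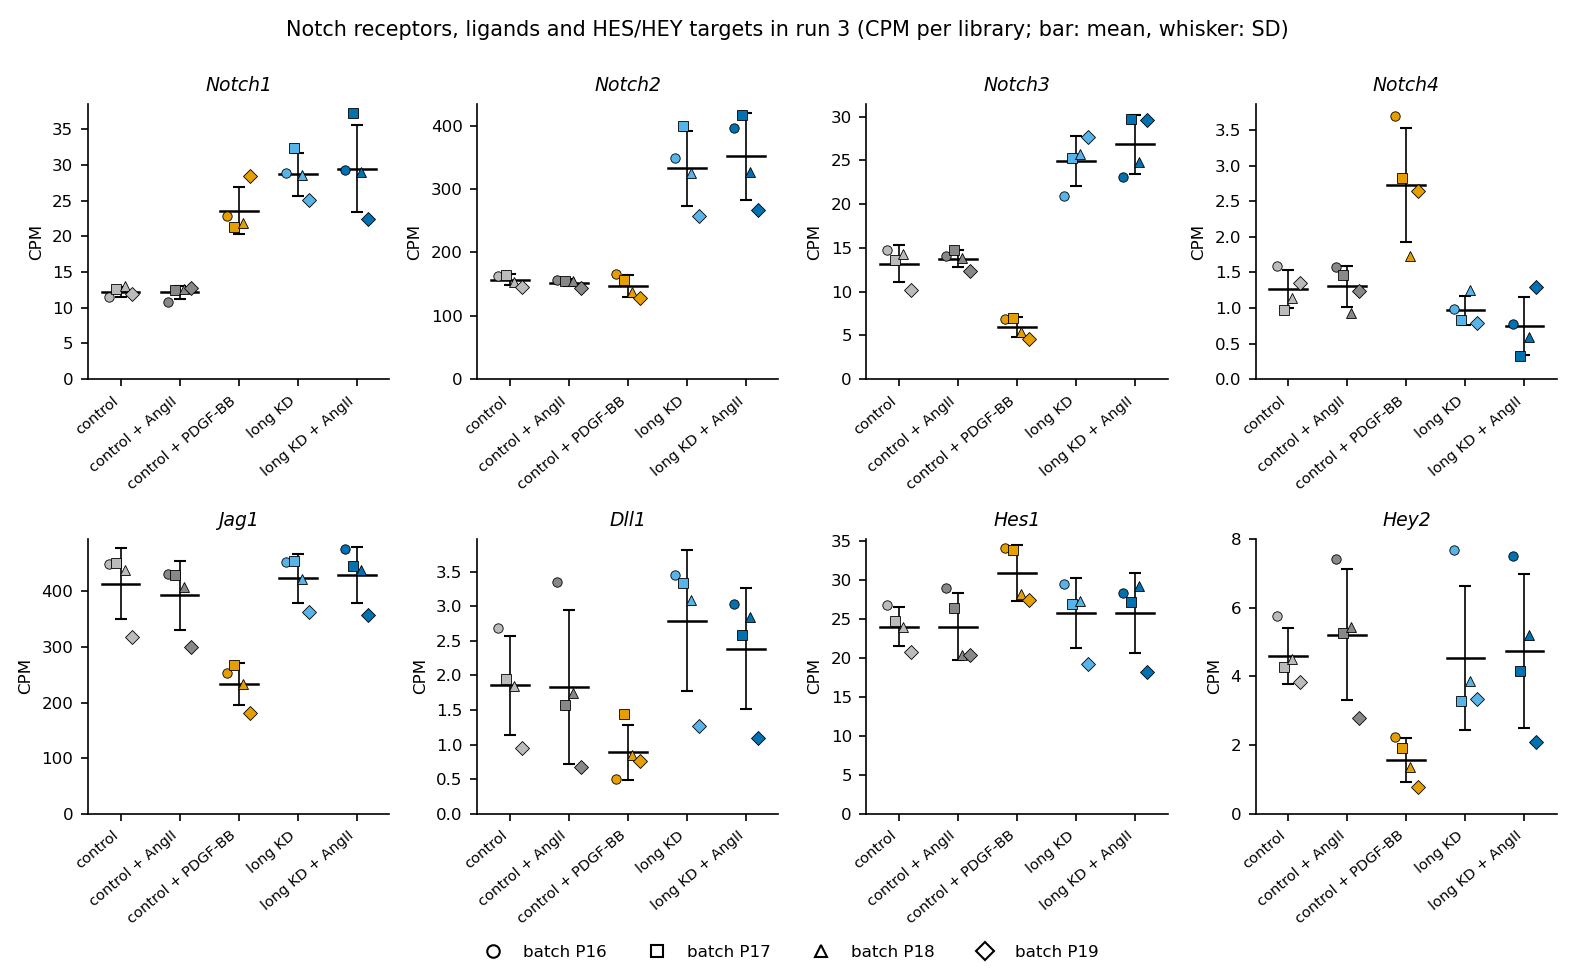
CPM of 8 members in each library of run 3 (y axis, from 0), by group (x axis; KD, knockdown), with 1 symbol for each batch, bars at the mean and whiskers at 1 SD. Notch1, Notch2 and Notch3 stand above the controls in both knockdown groups, while PDGF-BB libraries are high for Notch1 and Notch4 and low for Notch3, Jag1 and Hey2.

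The plot of run 3 levels shows the same 3 receptors raised under AngII. There Notch1 was 2.42-fold, Notch2 2.31-fold and Notch3 1.95-fold higher in knockdown than in AngII-treated controls. Again 3 of 8 members rose and none fell, with 26.7% of all genes called (13.4% higher and 13.3% lower), and the same 3 had separated groups, against 24.8% of all genes.

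With AngII the knockdown libraries measured 29.3, 37.2, 29.1 and 22.4 CPM for Notch1, and the controls 10.8, 12.5, 12.6 and 12.8. The log2 change was 1.28 with an SE of 0.129 (adjusted p = 4.97e-07). Notch2 went from 144 to 156 CPM in controls to 266 to 416 in knockdown, a log2 fold change of 1.21 (adjusted p = 1.32e-06). Notch3 went from 12.4 to 14.8 CPM to 23.2 to 29.7, a log2 fold change of 0.96 (adjusted p = 2.95e-05).

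Notch4 was at 0.324 to 1.3 CPM in knockdown under AngII and 0.934 to 1.58 in its controls. Its log2 fold change of -0.79 missed the threshold (adjusted p = 0.0944). Leaving out batch P19 gave -1.23 (adjusted p = 0.0165), and leaving out the P19 knockdown library alone gave -1.20 (adjusted p = 0.0133), so that 1 library decides the call. Jag1 measured 357 to 475 CPM against 301 to 431, a log2 fold change of 0.13 (adjusted p = 0.532). With the batch term its value was 0.14 and passed (adjusted p = 0.0182), where that fit called 41.3% of all genes and 4 members.

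Markers of other cell types and of the cell cycle are given beside these results. The summed level of 10 proliferation genes was 115 to 286 CPM in knockdown and 195 to 371 in untreated controls. All 10 had negative values (median log2 fold change -0.92), and 1 of 10 was called lower, beside 12.8% of all genes (7 of 10 with the batch term, beside 40.6%). Of 7 fibroblast markers 6 were tested, and 2 rose and 3 fell (6 called with the batch term). Col1a2 fell from a mean of 1324 to 390.5 CPM and Pdgfra rose from 15.1 to 47.4, while the list summed to 3540 to 4008 CPM against 4542 to 5391. Of 3 endothelial markers tested, Vwf rose from a mean of 0.144 to 0.688 CPM and Egfl7 fell from 1.95 to 0.517. Their list of 10 summed to 2.55 to 4.20 CPM against 3.02 to 5.14, with Tie1, Cldn5, Cdh5 and Erg at 0 in both groups. Of 5 pericyte markers, 1 of 3 tested rose (Rgs5, from a mean of 5.85 to 41.0 CPM), and their summed level was 280 to 573 CPM against 271 to 387. Of these 3, 2 had a positive value, and the batch term called all 3. Of 9 smooth muscle markers tested 2 rose and 1 fell (6 called with the batch term), with a summed level of 817 to 987 CPM against 907 to 1135. Macrophage markers summed to at most 2.71 CPM in every group of run 3.

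The same lists were read under AngII. All 10 proliferation genes had negative values (median log2 fold change -1.31), and 2 were called lower, beside 13.3% of all genes (9 called with the batch term, beside 41.3%), with summed levels of 114 to 272 CPM against 221 to 426. Of 6 fibroblast markers tested 1 rose and 3 fell (6 called with the batch term). Their list summed to 3445 to 3991 CPM against 4731 to 5265. Of 9 smooth muscle markers 2 rose and 2 fell (6 called with the batch term), with 840 to 1003 CPM against 905 to 1098. Vwf rose and Egfl7 fell among 3 endothelial markers, with 3.09 to 4.42 CPM for their list against 3.92 to 4.67. Rgs5 rose among 3 pericyte markers, of which 2 had a positive value and 2 were called with the batch term. The pericyte list summed to 284 to 581 CPM against 279 to 375. The part of these genes in the receptor values was not tested.

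No member passed the test for AngII itself. In control cells the log2 fold changes of the 8 members ran from -0.08 to 0.18, and in knockdown cells from -0.36 to 0.11. The difference between both responses, tested as an interaction, ran from -0.40 to 0.12. Of all genes, 0% were called by AngII in controls, 0% in knockdown and 0% for the interaction, with 156, 174 and 166 genes at an unadjusted p under 0.05. DESeq2 called 1, 0 and 1 genes, none of them a member.

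The intervals bound what could have been missed. For Notch1 under AngII in controls the 95% interval was -0.28 to 0.26, and for Hes1 it was -0.32 to 0.33. Low-count members were bounded less tightly, with -0.93 to 0.90 for Dll1 and -0.65 to 0.72 for Notch4. Without batch P19 the largest absolute log2 change among members was 0.85 for AngII in knockdown cells and 0.93 for the interaction.

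PDGF-BB, a mitogen for smooth muscle cells, split the receptors. Notch1 was 1.93-fold and Notch4 2.13-fold higher than in untreated controls, whereas Notch3 fell to 0.453 of its control level and Notch2 did not pass the test. The ligand Jag1 fell to 0.564 and the target Hey2 to 0.342 of control. Of 8 tested members, 2 rose and 3 fell, in a comparison where 43.6% of all genes were called, 23.6% higher and 20% lower. Groups did not overlap for 6 members, against 40.7% of all genes. This comparison and untreated long knockdown share the same 4 control libraries.

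Notch1 measured 22.8, 21.4, 21.8 and 28.4 CPM with PDGF-BB in batches P16 to P19, against 11.5 to 13.1 in controls. Every treated library lay above every control, and the log2 change was 0.95 with an SE of 0.127 (adjusted p = 5.61e-06). Notch4 measured 3.70, 2.82, 1.74 and 2.65 CPM, against 1.60, 0.97, 1.15 and 1.35. The groups were apart by a narrow margin, and the log2 change was 1.09 with an SE of 0.314 (adjusted p = 0.00802).

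Notch3 measured 6.84, 7.04, 5.37 and 4.63 CPM with PDGF-BB, against 10.2 to 14.7 in controls. All treated libraries were below all controls, and the log2 change was -1.14 with an SE of 0.144 (adjusted p = 2.46e-06). Notch2, at 128 to 166 CPM against 145 to 165, gave -0.09 (95% interval -0.36 to 0.18). Of the summed receptor level per kilobase of longest transcript, Notch1 therefore made up 14.3% ± 3.0 with PDGF-BB and 7.18% ± 0.554 without, and Notch3 4.19% ± 0.484 and 9.10% ± 1.03 (SD, n = 4 each).

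Jag1 measured 253, 267, 233 and 181 CPM with PDGF-BB. Each treated library was below the lowest control, 319 CPM, and the log2 change was -0.83 with an SE of 0.139 (adjusted p = 9.17e-05). Dll1, at 0.505 to 1.44 CPM against 0.948 to 2.69, gave -1.05 and did not pass (adjusted p = 0.0731). With the batch term it was -0.98 and passed (adjusted p = 0.0101), as it did without P19 (-1.21, adjusted p = 0.00383) and narrowly with DESeq2 (adjusted p = 0.0487). It also passed without the P19 control (-1.26) or without the P17 PDGF-BB library (-1.38), edgeR adjusted p = 0.0339 and 0.0378.

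Among targets, Hey2, whose promoter is printed above, measured 2.24, 1.90, 1.37 and 0.764 CPM with PDGF-BB, against 5.75, 4.28, 4.49 and 3.83. Treated libraries were all below the controls, and the log2 change was -1.55 with an SE of 0.395 (adjusted p = 0.00355). Hes1 went the other way, with 34.1, 33.8, 28.2 and 27.4 CPM against 26.7, 24.7, 23.9 and 20.7. Its groups were apart and it was higher in 4 of 4 batches, but the log2 fold change of 0.37 missed the threshold (adjusted p = 0.0619). With the batch term its adjusted p was 0.00093, and that fit called 7 members and 54.5% of all genes. Hes1 passed without P19 as well (0.35, adjusted p = 0.00492) and narrowly with DESeq2 (adjusted p = 0.0491). Heyl had 0 counts in all 4 PDGF-BB libraries and 2 in their controls, too few to compare.

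Cell-cycle genes moved with this treatment. All 10 proliferation genes rose, and their summed level was 2226 to 2391 CPM with PDGF-BB against 195 to 371 in controls. Smooth muscle markers summed to 703 to 820 CPM against 907 to 1135, with 1 of 9 tested called higher and 2 lower. Of 6 fibroblast markers tested, 2 rose and 3 fell. Dcn fell from a mean of 1592 to 664 CPM and Pdgfra from 15.1 to 3.10, and the list summed to 4219 to 6041 CPM against 4542 to 5391. Of 3 endothelial markers tested, Egfl7 rose and Pecam1 fell, and of 3 pericyte markers 1 rose. Their part in the values of the Notch genes was not tested.

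**Figure D2:**
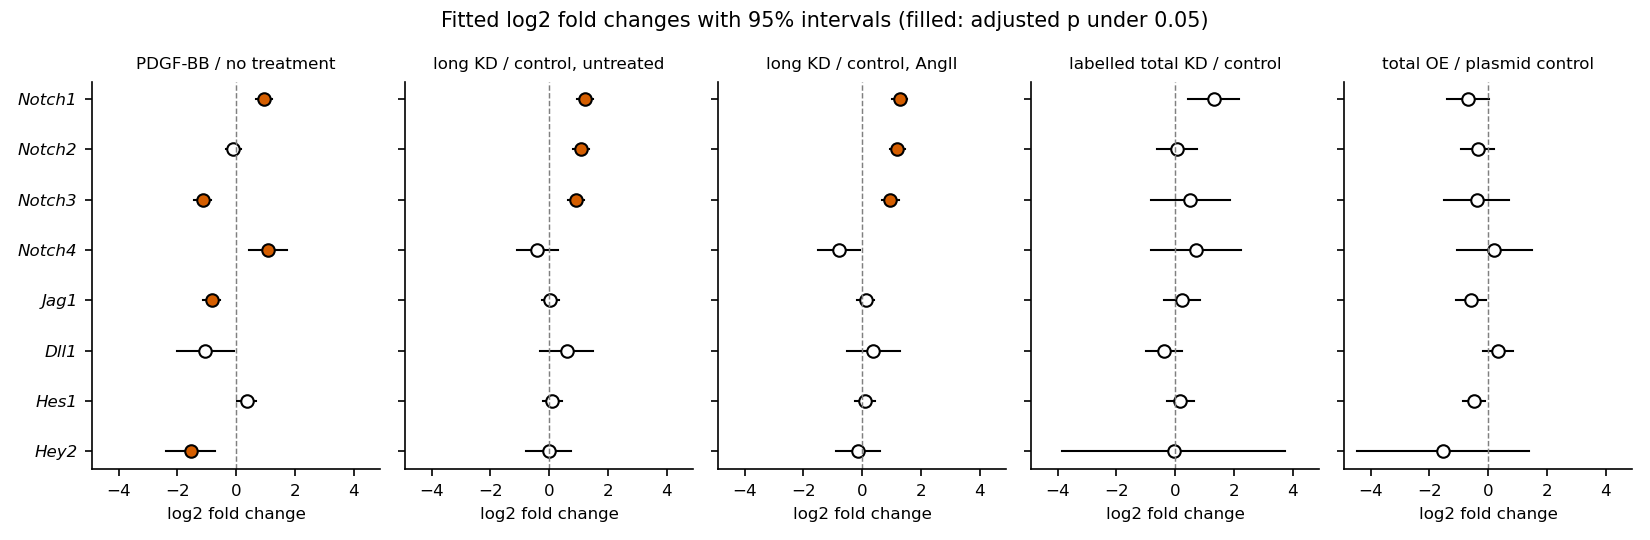
Fitted log2 fold change (x axis; points, with 95% intervals as lines) of 8 members (y axis) in 5 comparisons, filled where the adjusted p is under 0.05. Notch1, Notch2 and Notch3 are filled in both comparisons of long knockdown (KD), 5 members are filled for PDGF-BB, and none in run 2 (OE, overexpression). Intervals are wider in run 2 for every member shown except Dll1, for which they are narrower.

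Besides the 10 members, 55 genes of the pathway were read in 7 lists, and 46 were tested. In untreated long knockdown 4 rose and 10 fell (30.4%, beside 25% of all genes), with a median log2 fold change of -0.00 beside 0.02 over all genes. The batch term called 28 of them, where it called 40.6% of all genes. Under AngII 6 rose and 9 fell (32.6%, beside 26.7% of all genes), and the batch term called 24, where it called 41.3% of all genes. With PDGF-BB 7 rose and 10 fell (37.0%, below the 43.6% of all genes), and the batch term called 25, where it called 54.5% of all genes.

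In long knockdown the ligand Jag2, a relative of Jag1, fell by 1.04 on the log2 scale (SE 0.135, adjusted p = 1.09e-05), from 16.6 to 24.8 CPM to 9.06 to 11.2. Of 5 tested genes that add or extend sugars on the receptors, 3 fell and none rose, beside 12.8% of all genes called lower. The strongest was Lfng, a Fringe enzyme that alters which ligands a receptor responds to, at -0.93 (adjusted p = 3.14e-05). Of 9 genes of receptor cleavage, 3 fell and none rose, beside the same 12.8%, with Psen2, a catalytic subunit of gamma-secretase, at -0.46 (adjusted p = 0.00229). Neurl1a, a ubiquitin ligase of the Neuralized type that acts on ligands, fell from 2.39 to 5.00 CPM to 0.272 to 1.75, a log2 change of -2.31 (adjusted p = 0.000326).

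Of 14 genes of the transcription complex and its corepressors, 3 rose and none fell (21.4%, beside 25% of all genes called), and 10 of 14 had a positive value. The corepressor Tle1 was highest at 0.91 (adjusted p = 3.89e-06). Of 8 tested negative regulators, 1 fell, Dtx4 at -0.26, and of 3 other HES-type genes Bhlhe41 rose by 0.55 and Hes6, named after its values were seen, fell by 0.28.

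Under AngII the largest changes of each list fell to mostly the same names. Jag2 was at -0.99, Lfng at -0.67, Neurl1a at -2.65, Tle1 at 1.08, Dtx4 at -0.23 and Bhlhe41 at 0.61, each with an edgeR adjusted p under 0.05. In receptor cleavage the largest was Adam17, the protease also called TACE, at -0.44 (adjusted p = 1.80e-05). Of the 14 genes of the transcription complex and its corepressors, 5 rose and 1 fell (42.9%, beside 26.7% of all genes), and 11 of 14 had a positive value. The 1 that fell was Rbpj, named here after its values were seen because all canonical signalling passes through it; it was at -0.25 (adjusted p = 0.0151). In untreated knockdown Rbpj was at -0.17 and did not pass (adjusted p = 0.0978; 0.0056 with the batch term).

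With PDGF-BB both called ligands outside the members rose. Dlk1, a ligand-like protein that lacks the domain other ligands use to bind receptors, rose by 1.5 (adjusted p = 0.00653), from 0.542 to 0.748 CPM to 1.37 to 2.36. Neurl1b rose most of all, from 1.97 to 3.56 CPM to 13.4 to 17.7, a log2 change of 2.51 (adjusted p = 1.90e-08). Nrarp, a Notch target that limits the signal, rose from 11.1 to 18.2 CPM to 32.8 to 47.3, a log2 change of 1.52 (adjusted p = 4.24e-07), while 3 other negative regulators fell. Smaller changes were Ep300 at -0.25, Aph1b at -0.37, Hes6 at -0.38 and Eogt at 0.21, the largest called in their lists. Hey2 and Nrarp, a pair of genes known as direct Notch targets and set together after their values were seen, thus changed in opposite directions under the same treatment.

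**Figure D3:**
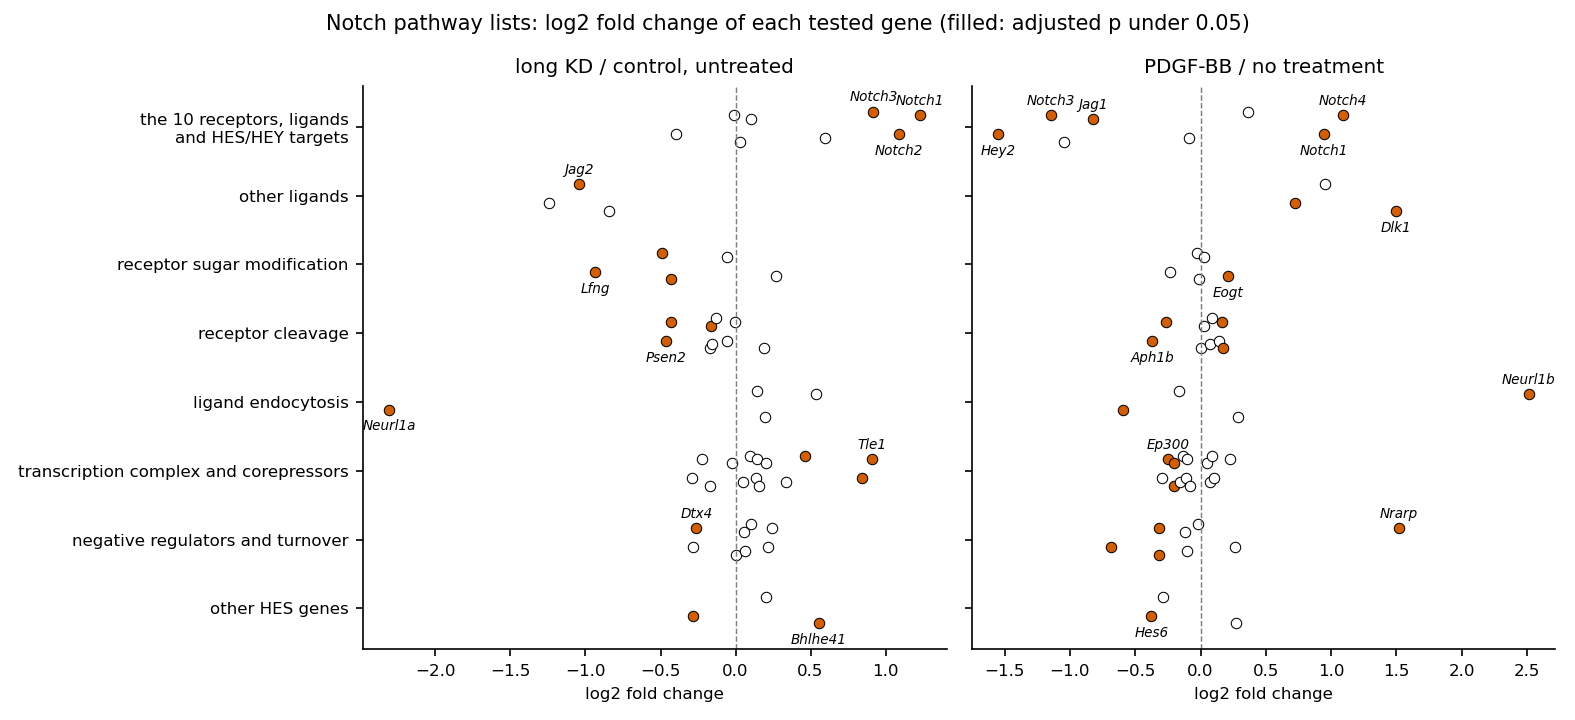
Log2 fold change (x axis) of each tested pathway gene, 1 point a gene, by list (y axis), for untreated long knockdown (KD) and for PDGF-BB. Filled points have an adjusted p under 0.05; called members and the largest called gene of each other list are named, with Neurl1a at -2.31 in knockdown and Neurl1b at 2.51 with PDGF-BB lying farthest out.

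In run 2 no member passed the test. The libraries labelled total CASC15 knockdown differed most from their controls in Notch1, at 137 and 143 CPM against 60.0 and 52.5. That is a log2 fold change of 1.31 (SE 0.385) with an adjusted p of 0.146, where 2.07% of all genes were called. With the batch term Notch1 alone passed (adjusted p = 0.000189), and that fit called 14.4% of all genes. Notch1 passed in 5 of 11 alternatives, DESeq2 (adjusted p = 0.0181) among them, at log2 values of 1.3 to 1.31, but in none that left out a single library. Groups did not overlap for 5 of 9 members, as for 49.4% of all genes with 2 libraries a group.

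Notch3 measured 68.4 and 83.9 CPM against 53.2 and 53.0 (log2 fold change 0.52, 95% interval -0.82 to 1.86), and Notch2 365 and 489 CPM against 361 and 460 (0.06, -0.63 to 0.74). Jag1 gave 0.24, Dll1 -0.39, Hes1 0.18, Notch4 0.71, Hey2 -0.05 and Heyl -0.47, none with an edgeR adjusted p under 0.65. Of the 46 other pathway genes 1 was called, Maml2, a Mastermind coactivator, which fell from 65.7 and 66.6 CPM to 13.4 and 24.3 (log2 -1.81, adjusted p = 0.0148). The batch term called 9, where it called 14.4% of all genes.

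Macrophage and endothelial markers summed to higher levels in both of these libraries than in either control. The 6 macrophage markers summed to 17.4 to 21.0 CPM, against 0.579 to 0.790 in controls, and 2 of the 3 tested were called higher. Most of that sum was Cd68, at 15.6 to 15.9 CPM, with Csf1r at 1.25 to 4.52. Lyz2 and Adgre1 reached at most 0.538 and 0.0448 CPM, and Ptprc and C1qa had no count. The 10 endothelial markers summed to 7.12 to 11.8 CPM against 3.34 to 4.74, with Tie1 and Cldn5 at 0. All 3 tested had positive values (median log2 fold change 1.21), 0 were called, and the batch term called Pecam1 and Vwf. Proliferation genes summed to 163 to 258 CPM against 92.9 to 101, with 0 of 10 called (9 with the batch term). Pericyte markers summed to 552 to 580 CPM against 566 to 573, with 0 of 3 called (3 with the batch term, 2 higher and 1 lower). Of 9 smooth muscle markers tested 1 was called, Myh11, which was higher (3 with the batch term). Of 7 fibroblast markers 0 were called (3 with the batch term). That fit called 14.4% of all genes. The part of these markers in the Notch1 and Notch4 values was not tested.

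Overexpression of total CASC15 went with lower values of several members, none of which passed the test, where 1.65% of all genes were called. The batch term called 4 members, all lower, and 17.7% of all genes. Only Hes1 and Heyl had groups that did not overlap, against 18% of all genes. Batch P19 stood apart here for several members. Leaving out its plasmid control alone called Notch1 (-0.97, adjusted p = 0.0317), Jag1 (-0.78, adjusted p = 0.0491) and Heyl (adjusted p = 0.00915) lower, and leaving out both P19 libraries called the same 3.

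Marker lists were read in the same libraries. All 10 proliferation genes had positive values (median log2 fold change 0.68), with summed levels of 216 to 798 CPM against 132 to 547, 0 called and 10 of 10 called with the batch term. Of 5 pericyte markers 3 were tested and 0 were called (2 with the batch term). Rgs5 had a mean of 115 CPM with overexpression and 35.4 with the plasmid. Its log2 fold change was 1.7 (edgeR adjusted p = 0.178, and 5.65e-05 with the batch term). Cspg4 went the other way, with means of 74.5 CPM against 94.0, and Pdgfrb was about level (391 against 380). The pericyte list summed to 407 to 712 CPM against 379 to 606. Of 7 fibroblast markers 0 were called (4 with the batch term), and 3 of 7 had a positive value. Among 9 smooth muscle, 3 endothelial and 3 macrophage markers tested 0 were called, and the batch term called 1, 0 and 1. That fit called 17.7% of all genes. Their part in the values of the Notch genes was not tested.

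Notch1 measured 62.5, 60.6 and 26.8 CPM with the plasmid control in P17 to P19, and 32.8, 39.8 and 21.5 with overexpression. It was lower within each batch, with a log2 fold change of -0.67 (adjusted p = 0.365; -0.63 and 0.00349 with the batch term). Notch3 in P19 was likewise far below the other batches, at 10.2 and 11.7 CPM against 26.4 to 43.0, and gave -0.39 (adjusted p = 0.761). Notch2 gave -0.36 and Notch4 0.20.

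Jag1 measured 304, 345 and 202 CPM with the plasmid control and 216, 215 and 136 with overexpression, lower within each of the 3 batches. Its log2 change was -0.59 (edgeR adjusted p = 0.259; -0.58 and 0.00049 with the batch term). Dll1 gave 0.35.

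Hes1 measured 24.5, 20.4 and 24.3 CPM with the plasmid and 19, 13.2 and 17.5 with overexpression. The groups were apart, yet the log2 fold change of -0.48 did not pass (adjusted p = 0.210; 0.0518 with the batch term). Hey2 was uneven: the plasmid controls had 1.76, 1.98 and 32.4 CPM and the overexpressing cells 0.599, 0.778 and 11. In P19 both libraries were more than 10 times above the other batches, while within each batch overexpression was lower, by -1.35 to -1.56 on the log2 scale. The fitted value of -1.54 (SE 1.3, adjusted p = 0.628) passed with the batch term (-1.51, adjusted p = 0.00045). Without the P19 plasmid control it reversed to 1.15.

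Heyl had 16, 18 and 2 counts with the plasmid and 0, 0 and 1 with overexpression. The ratio of summed counts was 0.0275 with a counting interval of 0.000677 to 0.163, and the fit gave an adjusted p of 0.0661 (0.00817 with the batch term). Hey1 had 9 counts in all with the plasmid and 1 with overexpression. Of the other pathway genes Adam17 rose, from 67.3 to 80.6 CPM to 113 to 153 (log2 0.85, adjusted p = 0.00995), and the batch term called 7, where it called 17.7% of all genes.

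**Figure D4:**
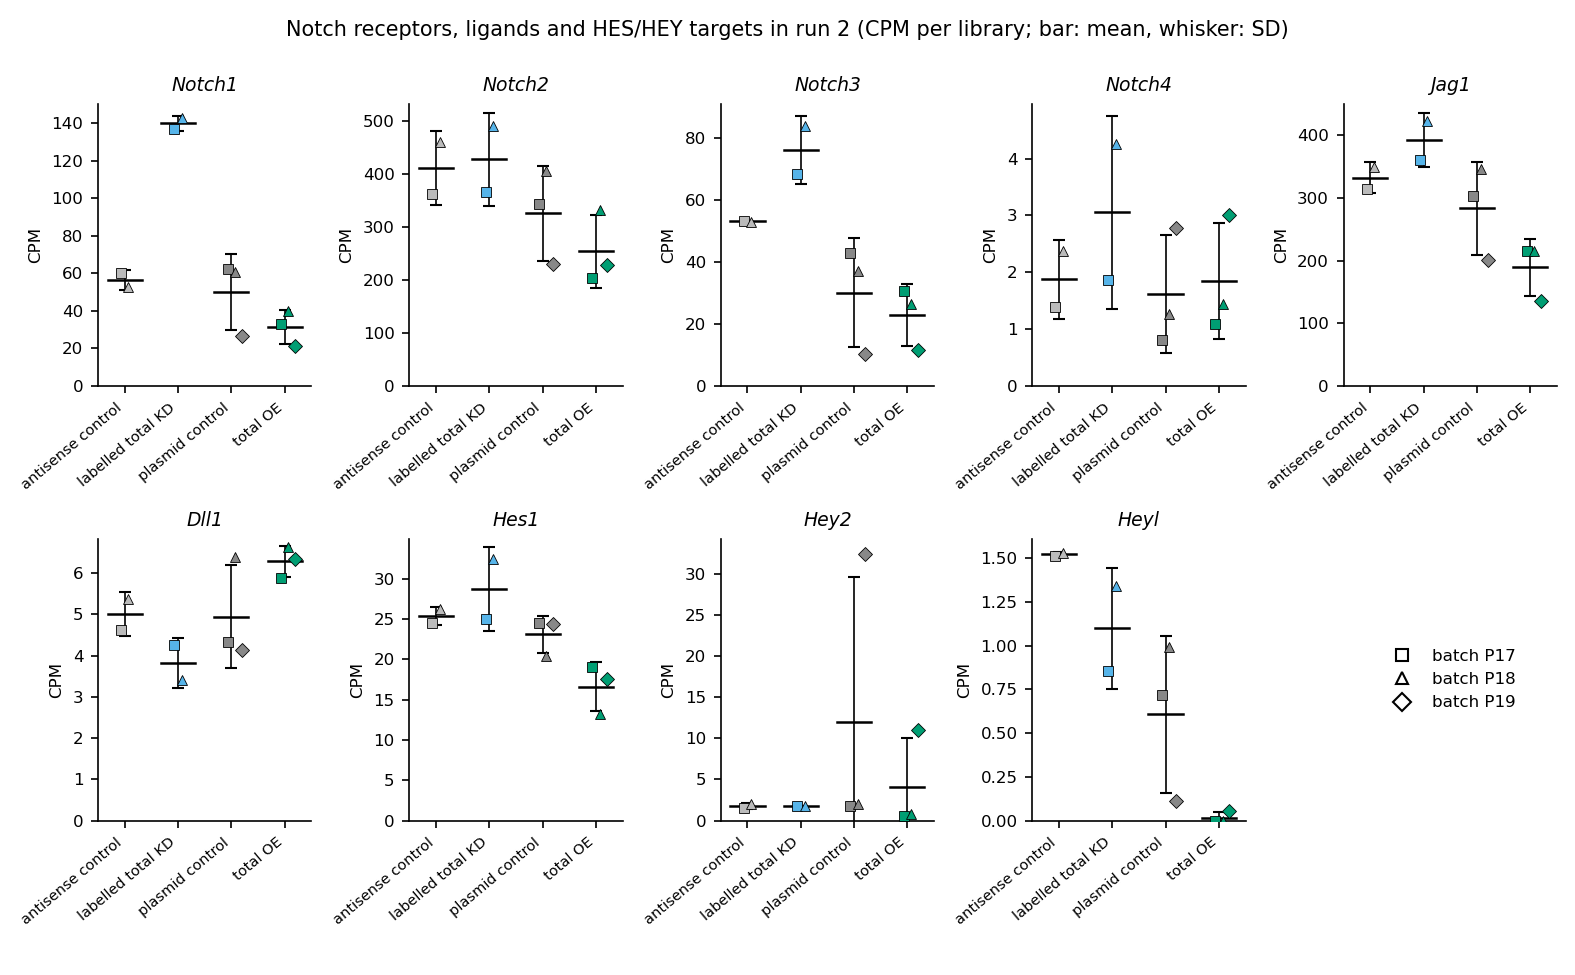
CPM of 9 members in each library of run 2 (y axis, from 0), by group (x axis), with 1 symbol for each batch, bars at the mean and whiskers at 1 SD (KD, knockdown; OE, overexpression). Notch1 is at 137 and 143 in libraries labelled total CASC15 knockdown, and Hey2 in the P19 plasmid control is at 32.4 CPM.

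Untreated cells with the control oligonucleotide were sequenced in both runs, and several members stood at other levels. Notch1 was at 56.2 CPM in run 2 and 12.2 in run 3 as group means, Notch2 at 411 and 157, and Notch3 at 53.1 and 13.2. Jag1 (332 and 414) and Hes1 (25.4 and 24.0) lay closer. The runs were normalised and fitted separately, so this was not tested, and a difference of run cannot be told apart from one of the cells.

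Batch P19 was also the lowest of its group in 5 of 5 groups of run 3 for Notch2, Jag1 and Hes1, and in 4 of 5 for Dll1 and Hey2. In run 2 it was the lowest in 2 of 2 groups for Notch1, Notch3 and Jag1. Each of the 11 calls of a member in run 3 nevertheless held in all 15 alternatives, P19 left out among them.

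Across the 20 libraries of run 3, log2 CPM of Jag1 and Hey2 were most alike among pairs of members (Pearson r = 0.897), and Notch3 and Notch4 least (r = -0.793). Over the 10 libraries of run 2 those pairs had r of -0.452 and -0.114. Outside the members the genes most like Notch1 were Wdr33 (r = 0.986) and Tshz1 (0.98), those most like Notch2 were Fgfr1 (0.986) and Mast4 (0.982), and those most like Notch3 were Sft2d2 (0.987) and Dzip1 (0.977). In run 2 these 6 had r of -0.156, 0.803, 0.578, 0.772, 0.715 and 0.770. Zfr2 (0.979) and Plxnb1 (0.977) were most like Jag1 and kept r of 0.917 and 0.909 in run 2. Notch4 was most like Ubash3b (0.890) and Car5b (0.886), with 0.328 and 0.615 in run 2. For the other 3 members both partners had the opposite sign in run 2. Dll1 was most like Ccdc57 (0.911, and -0.331 in run 2) and Arl5c (0.906 and -0.106), and Hey2 like Hyi (0.915 and -0.537) and Scara3 (0.909 and -0.261). Hes1 was most like Parp2 (0.873 and -0.328) and Pdk1 (0.869 and -0.813). With batch means removed, Parp2 and Pdk1 were only of rank 161 and 929 for Hes1, Ccdc57 and Arl5c of rank 25 and 84 for Dll1, and Hyi and Scara3 of rank 4 and 177 for Hey2. The 20 libraries fall into 5 groups and share batches, so these values describe the groups as much as the genes.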

How the data were processed

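RNA from mouse aortic smooth muscle cells was sequenced in 30 libraries as paired reads of 75 bases, per the labels. The authors deposited expected counts for each gene, made with RSEM 1.3.1 and STAR 2.7.11b, per the submitters' processing notes, which name both GRCm39 and mm10 as builds. The annotation and strand setting are not given in the sources used here, and antisense or overlapping genes may share reads. Symbols matched 51486 of 78334 identifiers, which hold 98.7% of the counts. GENCODE M21 gave transcript lengths.

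Expected counts were rounded. Each run was fitted by itself in edgeR 4.0.16 (R 4.3.3, limma 3.58.1) with filterByExpr (minimum count 10), TMM scaling and robust quasi-likelihood tests. CPM uses TMM-scaled totals, and counting intervals are exact at 95% and cover counting error only. DESeq2 1.42.0 (Wald test), its size factors, other filters, only the groups compared, a replicate block, batch P19 left out and each library left out were alternatives. The fits were tested on simulated data.

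The labels name the batch, which the replicate number follows within a run, so the numbers pair libraries. Deviations from group means had a mean correlation of 0.243 within batches (13 pairs) and -0.127 otherwise in run 2, and 0.215 (40 pairs) and -0.0654 in run 3. The members and lists were chosen with earlier results of these data known. All members are named, and of each other pathway list the called gene with the largest absolute log2 fold change in a comparison. For members with a mean of at least 1 CPM in run 3, genes most alike are those of highest Pearson r of log2 CPM (prior count 2) there, with predicted genes left out. A planned comparison of protein sequences was not run. Titles number CASC15 upward across replicates in some groups, so groups were taken from the library names.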

Additional observations from a re-analysis of the deposited data

Results flagged for a closer look

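In groups of 4 libraries, 42 sets of values of a member were checked for 1 library far from the others (Dixon's test at the 95% level), and 4 stood out. Chance gives about 1 in 20. Notch1 in the P16 control under AngII was at 10.8 CPM, with the other libraries at 12.5 to 12.8. Jag1 in the untreated P19 control was at 319 CPM, against 438 to 450. Dll1 in the untreated P19 long knockdown was at 1.27 CPM, against 3.10 to 3.46. Hey2 in the untreated P16 long knockdown was at 7.66 CPM, against 3.28 to 3.86.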

How the results depend on the processing

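The 11 calls of a member in run 3 held in each of 15 alternatives, and the block changed no call of a member beyond those given with the results. Counts of genes moved more. For the labelled total knockdown (317 genes) the replicate block called 2209, DESeq2 719, no filter 1325, only the groups compared 1079, all but P19 1041 and a filter on mean CPM 190, and 4 to 188 with 1 library left out (4 without the P17 control, 13 without the P18 control, 188 and 18 without the P17 and P18 knockdown). Notch1 alone was called (1 member) by each of these 6 but the CPM filter, and 0 members with 1 library left out. For overexpression (253 genes) the block called 2721, DESeq2 807, no filter 1363, only the groups compared 66 and all but P19 844, and 86 to 867 with 1 library left out. Members called were 4 with the block, 1 with DESeq2, 4 with no filter, 3 without P19, and 0 to 3 with 1 library left out; the highest values, 867 genes and 3 members, came without the P19 plasmid control. Long knockdown called 6126 genes with the block and 6062 without P19 (3783 in the fit used), and under AngII 6238 with the block (4033). AngII in controls and the interaction each gave 1 gene with DESeq2 and 1 with only the groups compared. Values of members near 0 reversed. Without P19, Jag1 was -0.013 and Hey2 0.029 in untreated long knockdown. With 1 library left out, the labelled total knockdown gave -0.17 to 0.25 for Notch2, -0.014 to 1.17 for Notch4, -0.020 to 0.34 for Hes1 and -0.25 to 0.16 for Hey2. Overexpression gave -0.35 to 0.84 for Notch4 and -4.13 to 1.15 for Hey2. Long knockdown gave -0.084 to 0.10 for Jag1 and -0.40 to 0.12 for Hey2, and -0.45 to 0.11 for Hey2 under AngII. A lone library left in a group is assumed to vary like the others. Depth limits Hey1, Heyl, Dll1 and Notch4, whose counts were low.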
